A study of Mus musculus with 12 samples.

Results

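The replication helicase genes are a set of 10 genes: the 6 that encode the ring of the replicative helicase (Mcm2, Mcm3, Mcm4, Mcm5, Mcm6 and Mcm7), its partners Cdc45, Gins1 and Gins2, and the activation factor Mcm10. They were chosen by name, as a list, out of 43346 gene IDs in the deposited table, with Cdc45 known to be higher in both congenic lines than in the line of the same background. All 10 were among the 17148 genes that passed the filter on low counts. Because the level of Cdc45 in the congenic lines was part of the choice, the members' values against the background strain are given here as a description with no test.

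The data are 12 RNA sequencing libraries of mouse embryonic stem cells in 4 groups of 3. B6 is C57BL/6J and D2 is DBA/2J, a pair of inbred strains. B6-13D2, with the strain name B6.D2-(rs30079041-rs51756099)/Bakr, carries a D2 segment of chromosome 13 on the B6 background. D2-13B6 is the reciprocal line, named D2.B6-(rs29224292-rs13469455)/Bakr on the samples, while the series text ends its segment at rs51756099. Per the labels, the cells of every group grew in serum with LIF, the MEK inhibitor PD0325901 and the GSK3 inhibitor CHIR99021. The protocol in the labels describes independent cultures of 1 line per strain, so that a difference between strains and one between lines cannot be told apart. B6 replicate 3 nevertheless has another line name than the other B6 replicates, the D2 titles and the D2 cell line field name different lines, and the titles speak of technical replicates. The p-values below measure the spread between these libraries, which may be partly technical.

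The helicase of the replication fork is a ring of MCM2 to MCM7 that is loaded on DNA as an inactive double ring. It becomes active when CDC45 and the 4-subunit GINS complex join it to form the CMG helicase, and MCM10 is needed for the active helicases to part and start unwinding. Genes of this machinery are classic targets of E2F transcription factors. Mouse embryonic stem cells divide rapidly, with a short G1 phase.

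None of the 10 genes lies on chromosome 13, so none is inside the exchanged segment. In GENCODE M21 coordinates (GRCm38) the ring genes Mcm3 and Mcm6 are on chromosome 1, Mcm2 on chromosome 6, Mcm4 on chromosome 16, Mcm5 on chromosome 8 and Mcm7 on chromosome 5. Cdc45 spans chr16:18780447-18811987 on the minus strand, Gins1 chr2:150905400-150931280 on the plus strand, Gins2 chr8:120578633-120589304 on the minus strand and Mcm10 chr2:4989714-5012791 on the minus strand.

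Promoter windows of 300 bases from RefSeq (GRCm38.p6), from 250 bases before to 50 after the start of the gene, were found for 7 of the 10 members, as 8 windows, since Mcm7 has a pair of start sites. They were searched on both strands for the E2F-type words TTTCCCGC, TTTGGCGC, TTTCGCGC and TTTGCCGC, which can overlap one another on opposite strands. Of the 8 windows, 4 held at least 1 word, those of the ring genes Mcm3, Mcm5 and Mcm6 and 1 of those of Mcm7, against 744 of 32851 windows of all genes (2.26%) and 24 of 78 windows of other replication and cell cycle genes (30.8%). The other Mcm7 window, chr5:138171217-138171516, and those of Mcm2, Cdc45 and Mcm10 held none of these words. The 30-base stretches around the words are shown because they hold each of these matches, 5′ to 3′ on the strand of the gene, with the words in capitals. A match describes letters and is no measured binding site.
Mcm3, chr1:20820266-20820295, minus strand: tgGCGGGAAAacttgggaagtTTTGGCGCc
Mcm5, chr8:75109347-75109376, plus strand: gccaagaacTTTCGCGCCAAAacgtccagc
Mcm6, chr1:128359795-128359824, minus strand: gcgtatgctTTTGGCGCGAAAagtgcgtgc
Mcm6, chr1:128359734-128359763, minus strand: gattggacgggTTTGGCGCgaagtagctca
Mcm7, chr5:138172030-138172059, minus strand: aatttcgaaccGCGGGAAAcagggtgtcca
Mcm7, chr5:138171849-138171878, minus strand: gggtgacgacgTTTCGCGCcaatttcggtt
The capital run of 12 bases in Mcm5, TTTCGCGCCAAA, and the one in Mcm6, TTTGGCGCGAAA, are reverse complements of each other.

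Libraries held 22184196 to 36411799 expected counts, and each member had at least 521 counts in every library. The 10 genes together took from 0.206% to 0.356% of the counts of a library. Marker genes of the labelled cell type, Pou5f1, Sox2, Nanog, Esrrb, Zfp42, Klf4 and Tfcp2l1, were all detected in every group. Markers of fibroblasts, which include the collagen genes Col1a1, Col1a2 and Col3a1 and also Dcn, Lum, Thy1 and Postn, were present too, with none at 0 in any group. A mean of at least 1 CPM was reached by 7 of 7 in B6, D2 and D2-13B6 and by 5 of 7 in B6-13D2, where Dcn was at 0.64 and Lum at 0.65 CPM. The growth protocol in the labels names no feeder cells. Markers of primitive endoderm summed to 7.08 to 15.3 CPM and those of trophoblast to 14.3 to 22.6 CPM, where CPM is a gene's count scaled to a common library total after TMM normalization.

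The stem cell marker sum moved with the helicase genes, and the fibroblast marker sum moved against them within each background. The summed level of the 10 helicase genes was 2832 to 2960.1 CPM in B6 against 2082 to 2159 in D2, and 3412 to 3500.1 in B6-13D2 against 2340 to 2395 in D2-13B6 (range over 3 libraries each). The sum of the 7 stem cell markers took the same order, with 3657 to 3812 CPM in B6 against 2597 to 2621 in D2. It was 4116 to 4241 CPM in B6-13D2 against 2982 to 2986 in D2-13B6. By group mean, Klf4 and Zfp42 departed from this order and the other stem cell markers kept it. Mean Klf4 was lower for B6-13D2 (322 CPM) than for B6 (418 CPM). Mean Zfp42 was higher for D2-13B6 (75.5 CPM) than for B6 (67.5 CPM). Tfcp2l1 had the widest span of means, from 435 CPM (D2) to 1082 CPM (B6-13D2). The sum of the 7 fibroblast markers was high where the helicase genes of the same background were low: 9351 to 10157 CPM in B6 against 3083 to 3169.9 in B6-13D2, and 14127 to 16909 in D2 against 7706 to 8030.03 in D2-13B6. Col1a1 and Col1a2 made up most of that sum, with means of 6428 and 2617 CPM in B6. Dcn and Lum had means of at most 5.26 CPM in any group. On the D2 background Dcn went the other way, at 2.81 CPM in D2 and 2.94 in D2-13B6, while the other markers were higher in D2. In bulk RNA a smaller share of stem cells and less of a transcript per stem cell cannot be told apart. The part of other cells in the results below was not tested. One alternative, chosen after seeing the data, scaled every library to its summed stem cell markers, and its values are given with the results.

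**Figure D1:**
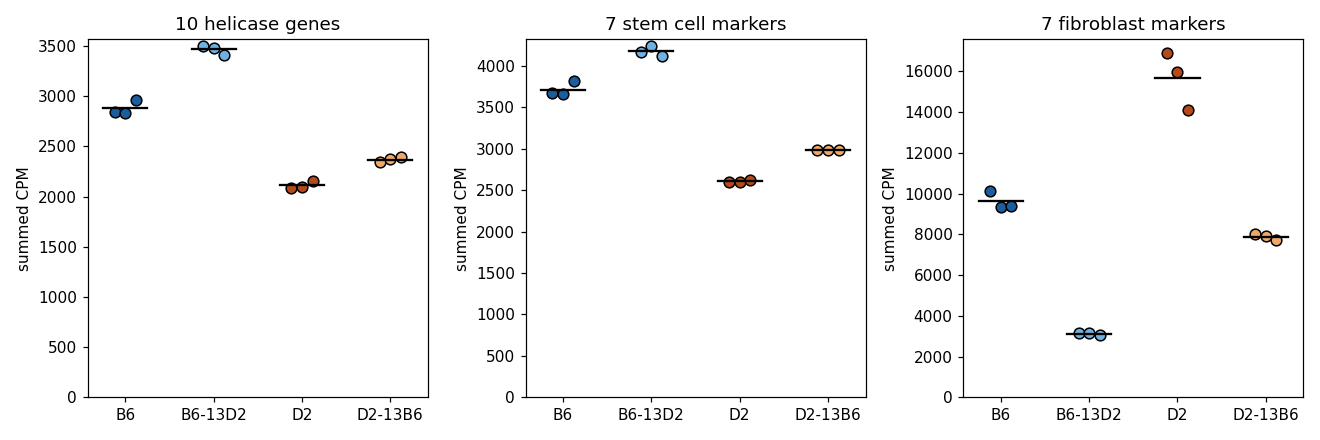
Summed CPM (y axis, linear, from 0) of the 10 helicase genes, of 7 stem cell markers and of 7 fibroblast markers in each library (points) of the 4 groups, with the group mean as a line. The helicase genes and the stem cell markers were highest in B6-13D2 and lowest in D2, and the fibroblast markers were lowest in B6-13D2, at 3083 to 3169.9 CPM, and highest in D2.

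Every helicase gene had a lower level in the D2 libraries than in the B6 libraries, as CPM scaled to the whole library. The comparison of the parental strains was not used to choose the genes. All 10 members were called lower in D2, against 30.3% of all tested genes called lower, 29.8% called higher and 60.0% called in either direction. The median of the members' log2 fold changes was -0.49, against 0.01 over all tested genes. Called means an adjusted p under 0.05 in edgeR's quasi-likelihood test, with Benjamini-Hochberg adjustment over all 17148 genes.

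Within the ring the difference was largest for Mcm4. Its level was 373.6, 378.3 and 378.1 CPM in the B6 libraries and 242.3, 245.6 and 264.1 in those of D2, with no overlap between the groups. The log2 fold change was -0.59 (SE 0.035, edgeR adjusted p = 1.77e-10). Mcm3 fell by 0.50 (SE 0.035, edgeR adjusted p = 1.47e-09) and Mcm5 fell by 0.48 (SE 0.036, edgeR adjusted p = 2.95e-09) on the log2 scale. Mcm6 fell by 0.42 (SE 0.035, edgeR adjusted p = 1.43e-08) and Mcm2 fell by 0.39 (SE 0.032, edgeR adjusted p = 1.11e-08).

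Mcm7 had the smallest difference in the ring. It stood at 495.4, 500.8 and 524.5 CPM in B6 and at 415.5, 410.5 and 419.7 in D2. The groups again did not overlap, and the log2 fold change was -0.29 (SE 0.032, edgeR adjusted p = 5.28e-07). Its 95% interval, -0.36 to -0.22, did not reach the interval of Mcm4, -0.66 to -0.51. Counts of Mcm7 were not whole numbers, so some of its reads were shared with other loci and divided among them. The annotation also places Cops6, Ap4m1 and the microRNA genes Mir25, Mir106b and Mir93 over parts of Mcm7.

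The partners of the ring were lower in D2 by similar amounts. Cdc45, which joins the ring when origins fire, had 48.0, 46.3 and 47.9 CPM in B6 and 32.9, 32.6 and 35.1 in D2. Its log2 fold change was -0.50 (SE 0.048, edgeR adjusted p = 7.91e-08). Gins2, a subunit of the GINS complex, had 71.2, 72.5 and 73.6 CPM in B6 and 50.3, 50.4 and 54.4 in D2, a change of -0.49 on the log2 scale (SE 0.041, edgeR adjusted p = 1.45e-08). Gins1, another GINS subunit, had 30.1, 30.7 and 32.0 CPM in B6 and 21.7, 23.7 and 24.4 in D2, and its log2 fold change was -0.41 (SE 0.058, edgeR adjusted p = 8.20e-06).

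Mcm10 had the most negative value of the 10. The B6 libraries had 153.6, 160.7 and 156.7 CPM and the D2 libraries 98.6, 102.6 and 106.7. The log2 fold change was -0.61 (SE 0.040, edgeR adjusted p = 5.68e-10), so that the level fell by 34.7%. Without B6 replicate 3, the library with the other line name, 10 of 10 members were also called (54.3% of all tested genes), with a median of -0.47. The groups were apart in every member: no D2 library reached the lowest B6 library, a separation that 30.9% of tested genes had in this direction and 31.2% in the other.

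These calls depended on the scaling to the whole library. Scaled to the stem cell marker sum, which itself differed by a log2 of -0.51 between D2 and B6, the members' median was 0.03 and 4 of 10 were called, against 78.5% of all tested genes. Mcm2 (0.12), Mcm6 (0.10) and Mcm7 (0.22) were then higher in D2 and Mcm10 (-0.10) lower. Cdc45 stood at 0.01 (SE 0.048, edgeR adjusted p = 0.86). The 7 markers may themselves differ between strains, so this scaling shows the members relative to those genes only.

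In both congenic lines nearly every helicase gene stood above the line of the same background. In B6-13D2 all 10 members were higher than in B6 with no overlap between libraries, a pattern that 4803 of 17148 tested genes had (28.0%), while 35.2% were lower with no overlap. In D2-13B6, 9 of the 10 were higher than in D2 with no overlap (30.7% of tested genes), and Mcm7 was lower with no overlap (32.2% of tested genes). The pattern of being higher in both lines was present in 14.2% of tested genes. The values of Cdc45 in these contrasts were part of the choice of the list, so the counts describe the genes and support nothing. Congenic columns of the deposited table carry a prefix that the parental ones lack, and if it records a batch, that batch and the congenic state cannot be told apart.

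**Figure D2:**
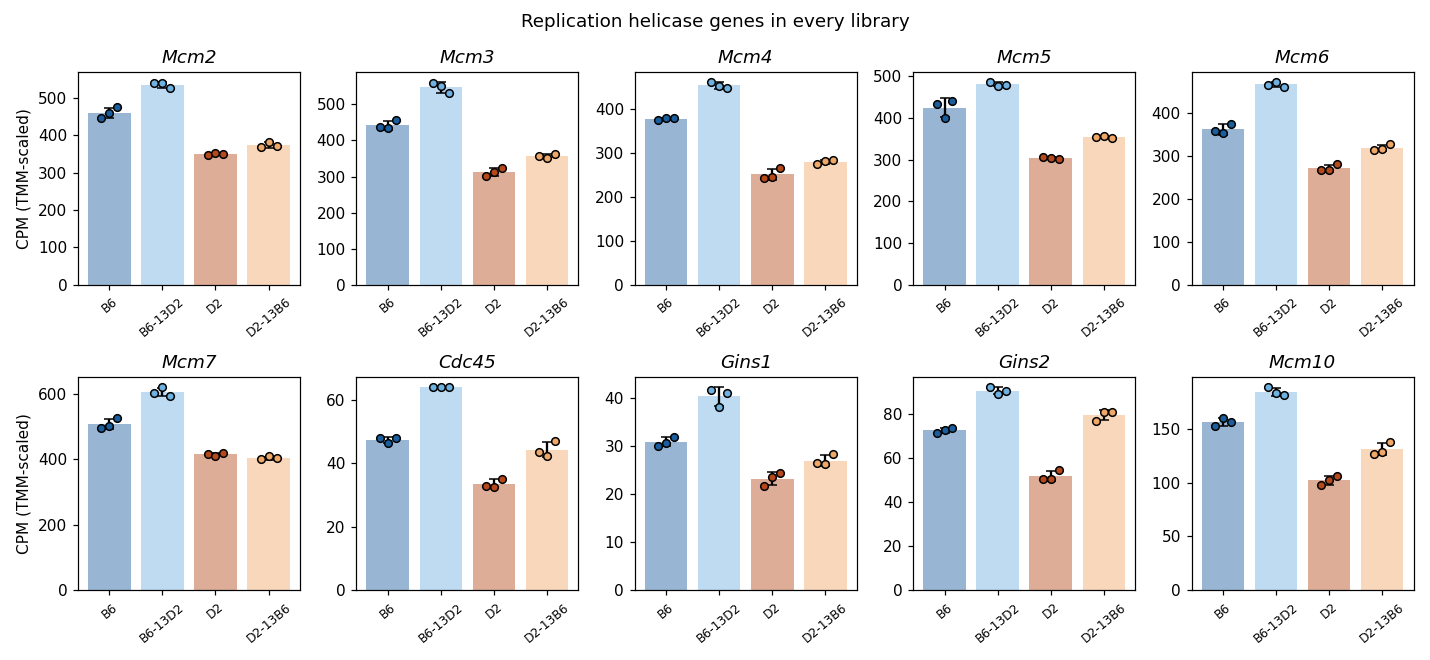
CPM after TMM scaling (y axis, linear, from 0) of each helicase gene in the 3 libraries (points) of B6, B6-13D2, D2 and D2-13B6, with bars at the mean and error bars of 1 SD. In 8 of 10 genes the order is B6-13D2, B6, D2-13B6, D2 from high to low, with Mcm7 and Gins2 as the exceptions.

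Cdc45 was 63.9, 64.0 and 63.9 CPM in the B6-13D2 libraries, above the 46.3 to 48.0 of B6, a log2 difference of 0.43 (SE 0.045). In D2-13B6 it was 43.4, 42.4 and 47.1 CPM, above the 32.6 to 35.1 of D2, a difference of 0.40 (SE 0.047). The sizes in the 2 lines were within their errors of each other. Scaled to the stem cell marker sum the differences were 0.26 and 0.21.

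Gins2 had the largest value in D2-13B6. Its level was 91.9, 89.0 and 90.1 CPM in B6-13D2, a log2 difference of 0.32 (SE 0.039) from B6. In D2-13B6 it was 76.7, 80.7 and 80.5 CPM, a difference of 0.62 (SE 0.040) from D2. D2-13B6 thereby stood above B6, which no other member did. Scaled to the stem cell markers, Gins2 differed from B6 by 0.15 in B6-13D2 and from D2 by 0.42 in D2-13B6. The annotation places Gse1 and Gm20388 over Gins2 on the opposite strand, and its counts were not whole numbers. Whether the counting used the strand is not given in the sources used here, so that its reads cannot be told apart from theirs.

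Gins1 was at 41.8, 38.3 and 41.2 CPM in B6-13D2 and at 26.5, 26.3 and 28.3 in D2-13B6. The log2 differences from B6 and D2 were 0.38 (SE 0.054) and 0.21 (SE 0.057), and with the stem cell marker scaling 0.22 (SE 0.056) and 0.02 (SE 0.058). Mcm10 had the opposite order of sizes, with 189.5, 183.7 and 182.2 CPM in B6-13D2, a difference of 0.24 (SE 0.039), and 127.4, 129.2 and 137.9 in D2-13B6, a difference of 0.36 (SE 0.040). Scaled to the stem cell markers, its differences were 0.07 and 0.16.

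Of the ring genes, Mcm6 had the largest value in B6-13D2. It was at 465.4, 471.6 and 461.1 CPM there and at 357.3, 352.0 and 374.8 in B6, a log2 difference of 0.37 (SE 0.034). In D2-13B6 it was at 313.7, 314.6 and 327.3 CPM against 265.9, 266.9 and 280.0 in D2, a difference of 0.23 (SE 0.035). With the stem cell marker scaling these became 0.20 and 0.04. For Mcm2, Mcm3, Mcm4 and Mcm5 the differences lay between 0.18 and 0.31 in B6-13D2 and between 0.10 and 0.22 in D2-13B6. That scaling gave 0.05 for Mcm2, 0.14 for Mcm3, 0.09 for Mcm4 and 0.0099 for Mcm5 in B6-13D2, and 0.03 for Mcm5 in D2-13B6.

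Mcm7 was the exception. In B6-13D2 it was at 602.9, 620.0 and 593.2 CPM, above every B6 library by a log2 difference of 0.26 (SE 0.032). In D2-13B6 it was at 399.2, 408.3 and 403.4 CPM, just below the 410.5 to 419.7 of D2. That log2 difference, -0.04 (SE 0.032), had a 95% interval of -0.11 to 0.03, and it turned to 0.03 with library totals in place of TMM. With the stem cell marker scaling, Mcm7 was at 0.09 in B6-13D2.

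The marker lists moved in both contrasts. The summed stem cell markers were higher by a log2 of 0.17 in B6-13D2 than in B6 and by 0.20 in D2-13B6 than in D2. The summed fibroblast markers differed by -1.62 and -0.99. Scaled to the stem cell markers, 10 of 10 members were above 0 in B6-13D2, with a median of 0.12, and 6 of 10 in D2-13B6, with a median of 0.02. Mcm2, Mcm3 and Mcm4 were then at -0.10, -0.0037 and -0.04 in D2-13B6, and Mcm7 at -0.24.

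**Figure D3:**
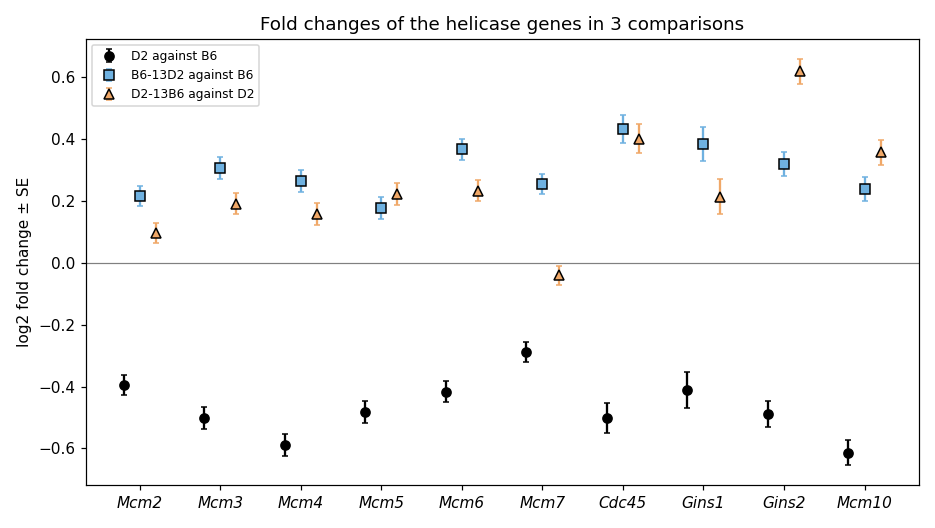
Log2 fold changes (y axis) of the 10 helicase genes, with error bars of 1 SE, for the parental comparison D2 against B6 (circles) and for each congenic line against its background strain (squares for B6-13D2, triangles for D2-13B6). Values for D2 lie between -0.61 and -0.29, and both congenic comparisons are above 0 except Mcm7 in D2-13B6.

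How the members compare with one another in a library does not depend on its scaling. Each gene was set against the median of the 10 in the same library on the log2 scale and centred over the 12 libraries. That median was the mean of Mcm4 and Mcm6 in every library, so the values are relative to this pair of genes. Gins2 was then at 0.32 ± 0.029 (SD, n = 3) in D2-13B6 and between -0.11 and -0.10 in the other groups. Mcm7 was at 0.18 ± 0.043 in D2 and between -0.09 and -0.03 elsewhere. Cdc45 was at -0.08 in both parental groups, at 0.03 in B6-13D2 and at 0.13 in D2-13B6. Relative to that pair, Mcm3 moved least, with group means between -0.01 and 0.00.

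Per kilobase of the principal transcript, the ring genes had levels of 105 to 171 CPM per kb in B6, with Mcm7 highest and Mcm4 lowest. Cdc45 had a level of 22.1 ± 0.46 CPM per kb (SD, n = 3), Gins1 of 28.5 and Mcm10 of 32.3 in the same group. The replicates of a group stayed close: the largest coefficient of variation of any member in any group was 6.02%. In the order of the 4 group levels, Cdc45 in B6 and D2-13B6 was the only neighbouring pair whose libraries overlapped.

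The reciprocal design allows averages over the segment and over the rest of the genome, labelled segment and background here. The average of B6-13D2 minus B6 and D2 minus D2-13B6 was taken for the D2 segment allele, and the rest of the difference between D2 and B6 for the background. With 1 line per strain and segment markers that differ between the congenic names, effects of a line or of unlike segments cannot be told apart from either average. Both averages are orthogonal to the summed difference of congenic minus parental lines, in which Cdc45 was known to be higher when the list was chosen. All 10 members were called lower on the D2 background (of tested genes 34.7% were called lower, 38.7% higher and 73.5% in either direction), with log2 values from -0.34 for Gins2 (SE 0.028, edgeR adjusted p = 4.19e-09) to -0.64 for Mcm4 (SE 0.025, edgeR adjusted p = 1.08e-13).

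Averaged over both backgrounds, the D2 segment allele went with small differences of either sign. These averages hold opposite values: the allele went with 0.18 to 0.43 on the B6 background for the 10 members, while on the D2 background, from the values of D2-13B6 above with the sign turned, 9 of 10 were lower with it. Of the 9 members tested, Cdc45 being left as a description, 4 were called, 3 higher and 1 lower, against 43.9% of all tested genes, 16.5% higher and 27.3% lower. Mcm7 was higher with the D2 allele by a log2 of 0.15 (SE 0.023, edgeR adjusted p = 4.09e-05) and Gins2 lower, at -0.15 (SE 0.028, edgeR adjusted p = 2.95e-04). Mcm6 at 0.07 (edgeR adjusted p = 0.034) and Mcm2 at 0.06 (edgeR adjusted p = 0.042) were higher as well. Neither of these calls held without a filter, or without B6 replicate 1, B6 replicate 2 or D2-13B6 replicate 1. Each was also lost when some other single libraries were left out. Mcm3, Mcm4, Mcm5, Mcm10 and Gins1 did not pass, with values from -0.06 to 0.09. Cdc45 stood at 0.02, with a 95% interval of -0.05 to 0.08.

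The count for the segment was unstable and ranged from 2 without B6 replicate 1, B6 replicate 2 or D2-13B6 replicate 1 to 7 without D2 replicate 1. Of all tested genes those fits called 39.9%, 39.8%, 39.5% and 41.0%. Scaled to the stem cell markers, 6 of 9 were called for the segment, against 43.3% of all tested genes. For the background that scaling left 4 of 10 called (85.0% of all tested genes), Mcm7 (0.06) and Gins2 (0.16) higher and Mcm3 and Mcm4 lower, with a median of 0.01 over the 10. The summed stem cell markers differed by -0.50 with the background and by -0.01 with the segment.

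**Figure D4:**
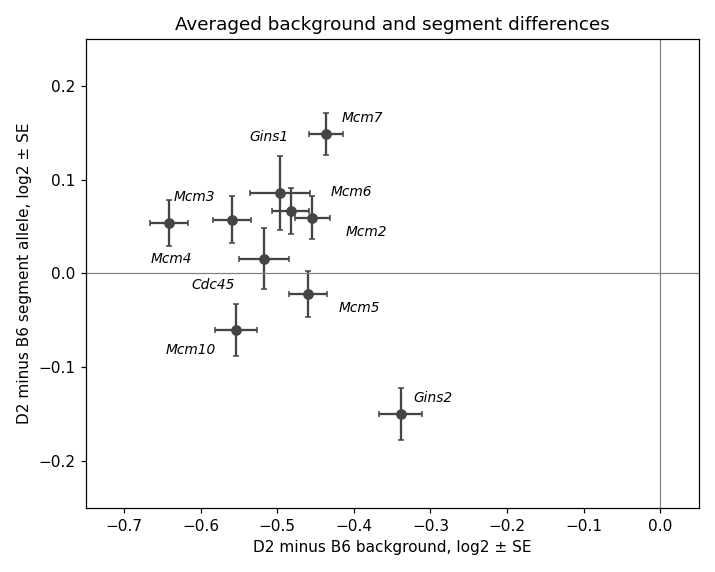
Averaged D2 background difference (x axis, log2, error bars of 1 SE) against averaged D2 segment allele difference (y axis, log2, error bars of 1 SE) of each helicase gene. All 10 genes lie left of 0 on the background axis, from -0.64 to -0.34, and within 0.15 of 0 on the segment axis, with Mcm7 highest and Gins2 lowest.

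Other genes of DNA replication and the cell cycle were read from 8 lists with 82 genes, which hold no member and all passed the filter. In D2 against B6, where 60.0% of all tested genes were called, 74 of the 82 were called, 67 lower and 7 higher (30.3% and 29.8% of tested genes), with a median of -0.42. In B6-13D2 against B6, where 58.3% of all tested genes were called, 63 were called, 60 higher and 3 lower (25.4% and 32.9% of tested genes), with a median of 0.21. In D2-13B6 against D2 (57.3% of tested genes called) it was 56, 48 higher and 8 lower (27.6% and 29.7% of tested genes), with a median of 0.20. Both congenic comparisons share their control libraries with D2 against B6, so the 3 counts are not independent.

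The split between higher and lower changed with the scaling. With the stem cell marker sum, 40 of 53 called genes were higher in D2, with 28 of 43 for B6-13D2 and 25 of 52 for D2-13B6. Of all tested genes it called 78.5%, 60.9% and 62.1% in these comparisons. With the whole-library scaling, the percentages higher were 9.46%, 95.2% and 85.7%, and with the markers 75.5%, 65.1% and 48.1%. That scaling moved the median of all tested genes by 0.51, -0.17 and -0.19 in the 3 comparisons.

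The remaining subunits of GINS were near the members. Gins3 was at a log2 of -0.45 in D2, with 0.28 for B6-13D2 and 0.43 for D2-13B6, each against the same strain as above, and Gins4 at -0.41, 0.35 and 0.27, each called. In the list of helicase completion and firing factors 9 of 10 were called lower in D2, from Ticrr at -0.86, and Donson, a gene for a factor of helicase assembly, was called higher at 0.19. In B6-13D2, 7 of the 10 rose and 1 fell, Ticrr, which brings factors to the ring for CDC45 loading, at -0.68 (SE 0.045, edgeR adjusted p = 4.44e-10). Donson had the highest value there, 0.69. In D2-13B6, 8 of the 10 rose, the least of them Donson at 0.23. Cdc7, the kinase that phosphorylates the MCM ring, rose by 0.71 there (SE 0.061, edgeR adjusted p = 1.68e-08).

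All 9 genes of licensing, the loading of the ring on DNA and its control, were called lower in D2, the least of them Orc4, an origin recognition subunit gene, at -0.21. Cdc6, a loader of the ring, had the largest difference in the list in D2, at -0.56, and in D2-13B6, at 0.85. In B6-13D2 the licensing gene with the largest value was Gmnn, the inhibitor of CDT1, at 0.49, and 8 of the 9 rose, the least of them Orc4 at 0.15. In D2-13B6, 6 of the 9 rose, the least of them Orc6 at 0.20.

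Relatives of the ring that are not part of it did not share 1 pattern of signs. Mcm8, which acts in recombination with MCM9, was at -0.58 in D2 against B6, 0.67 in B6-13D2 and 0.46 in D2-13B6. Mcm9 was called higher in D2, at 0.29, and in B6-13D2, at 0.47, and had a value of -0.13 in D2-13B6 that did not pass. Mcmbp, an MCM binding protein, was called at -0.10, 0.33 and 0.12.

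Of 12 polymerase and primase genes 9 were called lower in D2, 8 were called higher in B6-13D2, and in D2-13B6 5 were higher and 1 lower. The called values in D2 went from -0.88 for Pola2, of the polymerase alpha complex, to -0.31 for Pole, the catalytic subunit gene of polymerase epsilon. Those in B6-13D2 went from 0.14 for Pold3 to 0.70 for Pold2, both of polymerase delta, and those in D2-13B6 from -0.48 for Pold4 to 0.50 for Pold2. Of 17 fork factors, which clamp, stabilise and join new strands, 15 were lower in D2, 14 higher in B6-13D2 and 13 higher in D2-13B6. Rpa3, the small subunit of the single-strand binding protein RPA, had the lowest value of the 82 in D2, at -1.23 (SE 0.077, edgeR adjusted p = 3.42e-10), and the least of the called fork factors was Rpa1, the large RPA subunit gene, at -0.16. In B6-13D2 the called fork factors went from 0.12 for Rpa2 to 0.57 for Chaf1b, a histone chaperone subunit gene, and in D2-13B6 from 0.18 for Timeless, a fork protection gene, to 0.59 for Rpa1. All 5 nucleotide supply genes were lower in D2 and higher in B6-13D2. Rrm2 and Rrm1, the subunit genes of ribonucleotide reductase, were the extremes in D2 at -0.75 and -0.28, and Rrm1 (0.16) and the thymidine kinase gene Tk1 (0.57) those in B6-13D2. In D2-13B6, 2 of the 5 rose, up to 0.75 for Tk1, and 1 fell, Rrm2, at -0.12.

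The list of E2F factors and G1/S regulators held called genes of both signs in every comparison. In D2 against B6, 9 of the 16 were lower and 5 higher, and in B6-13D2 9 were higher and 2 lower. E2f2, an activating E2F, was at -0.82, and E2f8, a repressing one, at 0.73. In D2-13B6 against D2, 5 rose and 5 fell, from E2f8 at -0.67 to E2f5 at 0.43. Rb1, the repressor of E2F activity, fell by 0.54 in B6-13D2, where E2f8 was the highest at 0.46. Of 10 mitosis genes 9 were lower in D2, 6 were higher in B6-13D2, and in D2-13B6 7 were higher and 1 lower. The least of the called differences in D2 was that of Aurkb, a mitotic kinase gene, at -0.14. In B6-13D2 they went from 0.15 for Aurka, another mitotic kinase gene, to 0.59 for the cyclin gene Ccnb2, and the gene that fell in D2-13B6 was the cyclin gene Ccnb1, at -0.13. In D2 the lowest was Top2a, the topoisomerase of dividing cells, at -0.90, and it had the largest value of the 82 in D2-13B6, at 0.95.

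**Figure D5:**
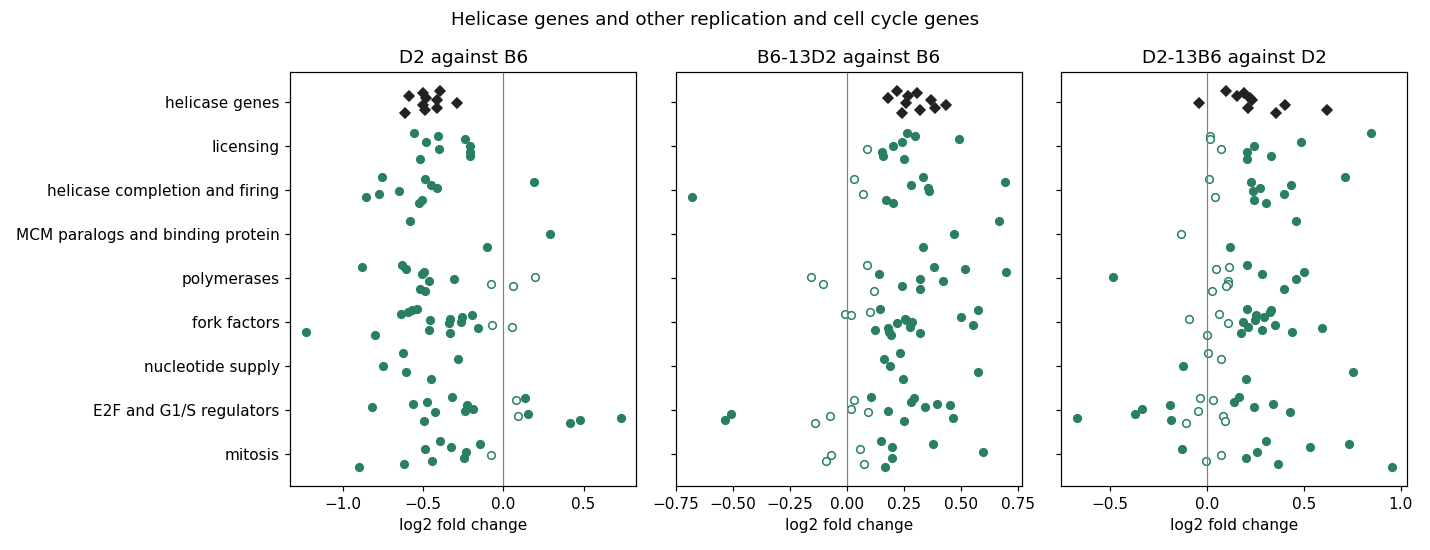
Log2 fold changes (x axis) of the 10 helicase genes (diamonds) and of 82 other replication and cell cycle genes (circles, filled where called at an adjusted p under 0.05) by list, in 3 panels for the 3 comparisons. The lists lie mainly below 0 in D2 against B6, with a median of -0.42 over the 82, and mainly above 0 in both congenic comparisons, and the E2F list spreads to both sides.

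The genes most like Cdc45 across the 12 libraries were sought among the 11051 genes whose mean log2 CPM was 2 or more, by the root mean square difference of centred log2 CPM. Among the closest were Bard1, the partner of BRCA1, at 0.053, Nampt, an enzyme of NAD salvage, at 0.059, the primase subunit gene Prim1 at 0.063 and the kinase gene Rps6ka1 at 0.064. Bard1, for example, had a mean level of 57.7 CPM in B6 against 39.1 in D2, and of 75.9 in B6-13D2 against 49.6 in D2-13B6. Of the other members, Mcm6 came closest with rank 13, Mcm10 had rank 23 and Gins1 rank 24. Gins2 had rank 270 and Mcm7, the least alike of the members, rank 841.

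The neighbours of Cdc45 on chromosome 16 did not share its pattern as a group. Ufd1, which starts on the opposite strand and overlaps Cdc45 by 209 bases, had a mean of 60.5 CPM in B6. It was at 44.7 CPM in B6-13D2, lower by a log2 of -0.43 (SE 0.048, edgeR adjusted p = 4.00e-07), where Cdc45 was higher. In D2-13B6 against D2, Ufd1 had a value of -0.06 that did not pass. Sept5, a septin gene, fell in both lines, by 1.23 and by 0.46. The next gene beyond Ufd1, 2510002D24Rik, was called in all 3 comparisons with the signs of Cdc45, at -0.42, 0.66 and 0.39, at mean levels under 10 CPM. Cldn5 was called higher in all 3, and Gp1bb was called higher in D2 and lower in B6-13D2, both at mean levels under 2 CPM, and Gm28539 did not pass in any of the 3.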

How the data were processed

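Per the labels, libraries made with an mRNA kit were sequenced from both ends. The authors deposited 1 table of expected counts (estimates that can have decimals) for each Ensembl gene in each library, and the file's own title names EMASE, which divides reads that map to several places. The submitters' processing notes list mm10, Bowtie 1.0.0 and edgeR 3.34.1 without a role; their parameters and the use of strand are not given in the sources used here. Values were whole, to within 1e-06, in 88.1% of cases, and 8 of the 10 members were whole in every library. Reads divided among loci can shift Mcm7 and Gins2. Groups and replicate numbers come from the sample titles, and 0 columns were left out.

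Symbols and positions were matched by Ensembl ID to GENCODE M21 for 42462 of 43346 IDs. Rounded counts went into edgeR 4.0.16 (R 4.3.3), with filterByExpr by group (minimum count 10), TMM, a quasi-likelihood fit of 4 group means over 12 libraries, and Benjamini-Hochberg adjustment at 0.05 over all 17148 genes within a contrast. The SE was derived from the log2 fold change and its F statistic. CPM was computed here from TMM-scaled library sizes. The scripts were tested on simulated counts.

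The members, lists and tests were chosen with earlier results of these data known. Named genes were all members, from each list the called genes with the lowest and highest log2 fold change, the remaining GINS and MCM relatives, the 5 genes most like Cdc45 (mean log2 CPM of at least 2), of which 1 is not reported here, and 3 neighbours of Cdc45 on each side. Alternatives were DESeq2 1.42.0, size factors by RLE, library totals, tests without a filter or with a minimum mean CPM of 1, a minimum change of 0.5 on the log2 scale, a replicate block, a fit of the compared groups alone, and every library left out once. Scaling to the summed counts of 7 stem cell markers was added after seeing the data.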

Additional observations from a re-analysis of the deposited data

Results flagged for a closer look

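In 9 of the 10 helicase genes the D2 segment allele went with a higher level on the B6 background and a lower one on the D2 background, in every library. This difference between the backgrounds was not tested, since it equals the contrast in which Cdc45 was known to be higher when the list was chosen. On the log2 scale, the effect on the B6 background minus that on the D2 background was 0.31 for Mcm2, 0.50 for Mcm3, 0.42 for Mcm4, 0.40 for Mcm5 and 0.60 for Mcm6. It was 0.83 for Cdc45, 0.60 for Gins1, 0.94 for Gins2 and 0.60 for Mcm10. The same sum of differences holds anything that the congenic libraries share and the parental ones lack.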

How the results depend on the processing

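The members' calls in D2 against B6 and for the background stayed at 10 of 10 with DESeq2, RLE, both other filters, the replicate block and each library left out. Of all tested genes, these settings called from 37.7% (no filter) to 66.8% (minimum mean CPM of 1) in D2 against B6. For the background the shares went from 47.7% to 78.9% with the same 2 settings at the ends. A minimum change of 0.5 (log2) left 4 members in each, 0 for the segment, and pathway counts of 28 (1 higher), 11 (8 higher) and 8 (7 higher) in D2 against B6, B6-13D2 against B6 and D2-13B6 against D2, where it called 27.3%, 28.8% and 26.2% of all tested genes (35.2% for the background, 8.28% for the segment). The segment count of 4 became 7 with DESeq2, with RLE and with a minimum mean CPM of 1 (39.7%, 43.8% and 51.4% of all tested genes called), 2 without a filter (27.3%), and 2 to 7 when 1 library was left out. Mcm5 for the segment turned to 0.00886 (DESeq2), 0.00883 (RLE) and 0.016 (minimum mean CPM of 1), and Mcm7 in D2-13B6 against D2 to 0.026 with library totals. The causes were not tested. With the stem cell marker scaling, 4 members were called in D2 against B6 and 4 for the background, and pathway genes called higher numbered 40, 28 and 25 in the 3 comparisons. Under it, D2 against B6 turned to a median of 0.025, with Mcm2 0.12, Mcm3 0.0084, Mcm5 0.029, Mcm6 0.095, Mcm7 0.22, Cdc45 0.0095, Gins1 0.10 and Gins2 0.022. D2-13B6 against D2 turned for Mcm2 (-0.098), Mcm3 (-0.0037) and Mcm4 (-0.038). The background turned to a median of 0.0083, with Mcm2 0.044, Mcm5 0.038, Mcm6 0.015, Mcm7 0.062, Gins1 0.0014 and Gins2 0.16. With the replicate block, 10, 4 and 10 members (D2 against B6, segment, background) and 73, 63 and 56 pathway genes were called, with 59.3%, 43.0%, 73.1%, 57.8% and 56.4% of all tested genes in D2 against B6, segment, background and the congenic comparisons. Same-numbered libraries had a mean correlation of deviations of -0.011 over 18 pairs, so the numbers showed no pairing.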
